A study of Mus musculus with 6 samples.

Results

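Tenascins, thrombospondins, periostin, the SPARC proteins, osteopontin and fibronectin were compared between cultured renal mesenchymal stromal cells (MSC) and sorted juxtaglomerular (JG) cells. The members were chosen by name, with earlier results of these data known. The 10 genes listed were Tnc, Tnxb, Thbs1, Thbs2, Thbs3, Postn, Sparc, Sparcl1, Spp1 and Fn1. For each, every probe set paired with only that gene was taken. Of the 10, 9 had at least 1 such probe set, 16 in all, out of 18193 genes and 34945 probe sets paired with 1 gene. No probe set used here was paired with Spp1, the osteopontin gene, so it was not analysed here. A further probe set paired with Thbs1 and another gene was left out.

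All samples came from adult C57BL6 mice of the genotype Ren1c YFP, a yellow fluorescent reporter named with the renin gene Ren1c. The MSC group had 3 samples, sorted with CD44, a hyaluronan receptor, then cultured until confluent in serum-containing DMEM. The JG group had 3 samples, labelled YFP+ and taken by fluorescence sorting. The growth medium of the MSC is also given for the JG samples, so whether JG cells were cultured cannot be told from the labels. Strain and genotype were thus shared, while cell type and sorting criterion differed together, as culture may have, and these cannot be told apart. Total RNA of each sample was read on 1 Affymetrix array. The labels do not say whether samples of a group were separate animals or cultures. The p-values set differences against the spread between these samples, so whether they hold for other animals cannot be told.

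Matricellular proteins are secreted into the extracellular matrix and act on how cells attach and respond to growth factors more than on the strength of the matrix. Many of them, tenascin C included, are typically produced in development and repair, and bind integrins or proteoglycans at the cell surface. Fibronectin is a structural glycoprotein on which other matrix proteins are assembled, and in kidney fibrosis it is made by fibroblasts and other stromal cells. Juxtaglomerular cells sit in the wall of the afferent arteriole and secrete renin.

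The 3 MSC arrays resembled each other more than the 3 JG arrays did, with correlations of 0.971 to 0.975 and 0.807 to 0.887 across genes, and the correlations with MSC were 0.806 to 0.814 for JG sample 1, 0.687 to 0.701 for JG sample 2, 0.769 to 0.782 for JG sample 3. All 10 proximal tubule markers, 5 of 6 thick ascending limb markers and 6 of 6 distal tubule and collecting duct markers were higher in JG. The summed intensities of these lists ran from 28405 to 36515, 8869 to 12628 and 4619 to 12893 in JG, and from 348 to 628, 125 to 479 and 55.8 to 117 in MSC. Of 6 measured renin cell markers, 3 were higher in JG (Rgs5, Rgs2 and Ace) and 1 was lower (Gjc1), while Ren1 and Akr1b7 were not analysed here. The MSC sort antigen gene Cd44 read 1005, 1035 and 881 in MSC and 153, 119 and 144 in JG. Of 7 measured MSC surface markers 2 were higher in MSC (Cd44 and Itgb1) and 2 in JG (Thy1 and Nt5e), with a list median of 1.21. Values are intensities from the deposited table with 1 as the lowest value, and no detection call came with them, so a low value is not reported as absence. For each gene, 16 was added to the intensity before taking log2, and the difference is the JG mean less the MSC mean, with its SE. Adjusted p-values come from limma over all genes, and a gene with a value under 0.05 is said to be called, higher or lower. In RNA from many cells, fewer cells of a type and less RNA per cell cannot be told apart.

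Sequence upstream of the annotated start was available from RefSeq (GRCm38.p6) for 7 of the 10 genes, as 10 windows cut here to the 250 bases before the start. The windows of 3 genes are shown: Tnc, which had the largest difference among the members, its relative Tnxb, whose mean difference had the opposite sign, and Postn, whose difference was the smallest. They are at chr4:64046937-64047186 on the minus strand, chr17:34670285-34670534 on the plus strand and chr3:54360857-54361106 on the plus strand. Where a gene had 2 starts, the one further downstream was used. The annotated loci begin further upstream, at 64047015 for Tnc, 34660453 for Tnxb and 54359267 for Postn. The starts used for these windows therefore lie inside the loci. TATATAA was not found in the other windows of Tnc and Postn. Capitals mark matches to the motifs searched on both strands.
Tnc: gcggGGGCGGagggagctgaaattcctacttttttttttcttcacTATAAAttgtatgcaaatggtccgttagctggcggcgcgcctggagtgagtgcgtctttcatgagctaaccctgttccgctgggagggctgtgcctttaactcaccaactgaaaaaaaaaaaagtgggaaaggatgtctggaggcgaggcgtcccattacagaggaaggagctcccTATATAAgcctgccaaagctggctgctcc
Tnxb: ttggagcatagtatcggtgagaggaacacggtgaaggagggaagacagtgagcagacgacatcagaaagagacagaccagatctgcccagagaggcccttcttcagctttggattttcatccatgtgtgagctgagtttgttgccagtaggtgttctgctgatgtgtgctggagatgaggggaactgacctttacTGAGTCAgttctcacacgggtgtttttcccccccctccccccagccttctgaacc
Postn: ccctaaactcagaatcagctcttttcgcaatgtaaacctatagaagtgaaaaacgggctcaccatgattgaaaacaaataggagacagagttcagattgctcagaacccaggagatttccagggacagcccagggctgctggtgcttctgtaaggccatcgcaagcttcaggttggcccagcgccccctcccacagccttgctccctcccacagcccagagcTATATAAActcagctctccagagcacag
The motifs were TATATAA and TATAAA (forms of the TATA box, which overlap in Postn), TGANTCA (the AP-1 site), CATTCC (the core of the TEAD site), GGGCGG (the GC box) and the CArG box. TATATAA was found in the windows of Tnc, from 29 bases before the start, and of Postn, from 28 bases before it, and in 3.0% of all 32851 windows. TATAAA was found for Tnc, Postn, Thbs2 and Spp1 and in 12.4% of all windows. The AP-1 letters were found for Tnxb, at 55 bases before the start, and in 6.7% of all windows. The GC box was found for Tnc and Thbs3 and in 32.7% of all windows. CATTCC (12.6%) and the CArG box (1.5%) were in none of the 10 windows. Tnc and Postn therefore shared the same TATA letters at nearly the same place, although their values differed between the groups to very different extents. These matches describe letters and are not evidence of binding.

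Thrombospondin 1 and tenascin C were higher in MSC, and Sparcl1 was higher in JG. For 7 of the 9 genes the difference was negative and for 2 it was positive, and 3 were called, against 15.3% of all genes. Higher in MSC were 2 of 9, against 7.63% of all genes, and higher in JG was 1 of 9, against 7.7%. The groups did not overlap for 5 of the 9 genes, against 38.7% of all genes, of which 4 had the higher values in MSC, against 18.5% of all genes, and 1 in JG, against 20.2%. The median difference of the 9 was -1.30, and that of all genes was 0.07. Without JG sample 1 the count of members higher in MSC was 6, and that of all genes called in either direction 5194 in place of 2790. Under array weights the member count was also 6, with 6177 genes called in either direction. The share of all genes higher in MSC was not computed for these settings, so the rise in members cannot be set against it.

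**Figure D1:**
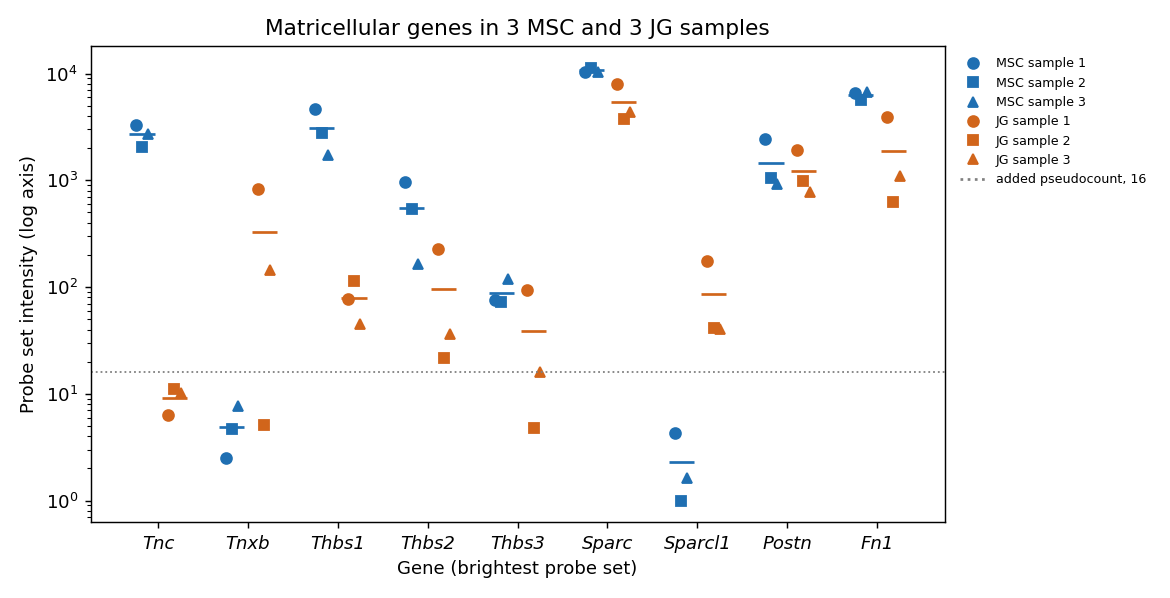
Intensity of the brightest probe set of each gene on a log axis, with a point for each of 3 MSC (blue) and 3 JG samples (orange) and a line at the group mean; the dotted line is the pseudocount of 16. Tnc is at 2057 or more in every MSC sample and at 11.1 or less in every JG sample, whereas Postn overlaps between the groups.

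Tenascin C, encoded by Tnc, is a large hexameric glycoprotein of developing and healing tissue. Its brightest probe set read 3268, 2057 and 2736 in MSC samples 1 to 3 and 6.36, 11.1 and 10.1 in JG samples 1 to 3. All MSC samples were far above all JG samples, and the JG samples lay below the pseudocount. The difference was -6.73 ± 0.26 (adjusted p = 6.35e-05), and its size depends on the added 16: it was -8.05 with a pseudocount of 1 and -5.21 with one of 64. With the mean of both Tnc probe sets it was -4.36. It was called with every alternative, with adjusted p up to 0.0037. The other Tnc probe set was dimmer and read 268, 26.2 and 23.9 in MSC and 2.06, 4.28 and 4.41 in JG. Here too the groups did not overlap, but MSC sample 1 alone was high, and the difference of -2.00 ± 0.77 was not called over all probe sets (adjusted p = 0.143).

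Tenascin X, encoded by Tnxb, is a tenascin of connective tissue that associates with collagen fibrils and is needed for normal skin and joint stability. Its only probe set read 2.49, 4.68 and 7.64 in MSC and 831, 5.14 and 144 in JG. JG samples 1 and 3 were high, and JG sample 2 lay inside the MSC range. The mean was 4.94 ± 2.58 (SD, n = 3) in MSC and 327 ± 442 (SD, n = 3) in JG. The difference of 2.77 ± 1.23 was not called (adjusted p = 0.181). Without JG sample 2 it was 4.14 (adjusted p = 0.0191), and under array weights its adjusted p was 0.0132.

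A call for Tnc and none for Tnxb does not show that they differ from each other, so their ratio within each array was compared. The log2 ratio of Tnc to Tnxb was 7.47, 6.65 and 6.86 in MSC and -5.24, 0.36 and -2.61 in JG. Every MSC ratio exceeded every JG ratio, and the group difference was -9.49 ± 1.64. Tnxb in MSC and Tnc in JG both lie below the pseudocount, and the difference was -12.1 with a pseudocount of 1 and -6.97 with one of 64. An exact two-sided permutation test over the 6 samples gave p = 0.1, which is the smallest value 3 samples against 3 allow. This exact permutation test was run on 4 within-family pairs, each with p = 0.1 before and after Benjamini-Hochberg adjustment, so none can pass a threshold of 0.05.

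Thrombospondins are calcium-binding glycoproteins. Thbs1 and Thbs2 encode the trimeric, anti-angiogenic members, of which thrombospondin 1 can activate latent transforming growth factor beta, and Thbs3 encodes a pentameric member. The brightest Thbs1 probe set read 4697, 2772 and 1741 in MSC and 77.5, 114 and 44.9 in JG. The groups were wide apart, and the MSC samples themselves spanned 2.70-fold. The difference was -4.97 ± 0.46 (adjusted p = 0.00119), and 177th by size. The second Thbs1 probe set read 4500, 2872 and 1888 in MSC and 121, 72.0 and 32.5 in JG, and differed by -5.12 ± 0.49 (probe set fit, adjusted p = 0.00211). Both probe sets thus gave the same direction and a similar size, and both stayed called under every alternative.

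Thbs2 was less uniform. Its brightest probe set read 955, 543 and 163 in MSC and 229, 21.8 and 36.0 in JG. JG sample 1 lay above MSC sample 3, so the groups overlapped, and the difference of -2.55 ± 0.89 was not called (adjusted p = 0.107). A second probe set read 684, 327 and 99.2 in MSC and 48.1, 17.2 and 21.1 in JG. In that probe set the groups did not overlap, and the difference of -2.82 ± 0.68 was called over all probe sets (adjusted p = 0.0445). That call was lost with quantile normalization, with a pseudocount of 64 and without MSC sample 1 or 2 or JG sample 2 or 3 (adjusted p up to 0.148). The remaining Thbs2 probe set stayed between 1 and 16.2 on all arrays and was not called (-0.54 ± 0.28, adjusted p = 0.252).

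Thbs3 was dim in both groups, at 75.8, 72.8 and 118 in MSC and 94.2, 4.82 and 16.1 in JG. JG sample 1 fell inside the MSC range and JG samples 2 and 3 below it. The difference of -1.30 ± 0.62 was not called (adjusted p = 0.207). Without JG sample 1 it was -1.99 (adjusted p = 0.0103), and Thbs2 without that sample was -3.37 (adjusted p = 0.0233). Under array weights both genes were called as well, with adjusted p = 0.0305 for Thbs2 and 0.0221 for Thbs3.

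Within arrays, the log2 ratio of Thbs1 to Thbs2 was 2.28, 2.32 and 3.29 in MSC and -1.39, 1.79 and 0.23 in JG (difference -2.42 ± 0.98, exact permutation p = 0.1). That of Thbs1 to Thbs3 was 5.68, 4.97 and 3.71 in MSC and -0.24, 2.65 and 0.92 in JG (difference -3.68 ± 1.02, exact permutation p = 0.1). For both pairs every MSC ratio lay above every JG ratio at the pseudocount of 16, and with a pseudocount of 1 the exact permutation p was 0.2.

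SPARC, or osteonectin, is a collagen-binding protein of matrix-producing cells, and Sparcl1 encodes its close relative hevin, found in vessels and brain. The brightest Sparc probe set read 10375, 11374 and 10380 in MSC and 8012, 3740 and 4398 in JG. The MSC samples agreed closely and all lay above the JG samples, of which sample 1 was the nearest. The mean was 10710 ± 575 (SD, n = 3) in MSC and 5384 ± 2300 (SD, n = 3) in JG, and the difference of -1.07 ± 0.33 was not called (adjusted p = 0.081). It was called without JG sample 1 (-1.40, adjusted p = 0.0094), with a trended and robust variance prior (adjusted p = 0.0332) and with array weights (adjusted p = 0.00804).

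The second bright Sparc probe set read 10214, 11541 and 11124 in MSC and 7372, 1582 and 2670 in JG, which gave -1.79 ± 0.55 (adjusted p = 0.0868 over all probe sets). These probe sets ordered the JG samples alike, with sample 1 highest and sample 2 lowest. The dimmest, at 143, 15.7 and 30.0 in MSC and 30.2, 8.28 and 11.3 in JG, overlapped between the groups and was not called (-0.97 ± 0.64, adjusted p = 0.357).

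Sparcl1 read 4.29, 1 and 1.64 in MSC and 177, 41.4 and 40.1 in JG. All JG samples were above all MSC samples, and JG sample 1 was the highest of them. The difference was 2.22 ± 0.51 (adjusted p = 0.0341), and its size depends on the added 16, since the MSC values lie below it. The call was lost without MSC sample 1, 2 or 3 (adjusted p = 0.104, 0.124 and 0.125) and with a pseudocount of 64 (1.06, adjusted p = 0.117), and with a pseudocount of 1 the difference was 4.48. Of 10 endothelial markers 5 were also higher in JG, and their summed intensity was 1091 to 1299 in JG and 229 to 256 in MSC. Of 8 smooth muscle and pericyte markers 2 were higher in JG and 4 in MSC, with sums of 3393 to 4596 and 16656 to 21435. The part of these cells in the Sparcl1 value was not tested.

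The log2 ratio of Sparc to Sparcl1 was 9.0, 9.39 and 9.20 in MSC and 5.38, 6.03 and 6.30 in JG. The ratios did not overlap between the groups, and the difference was -3.29 ± 0.29 (exact permutation p = 0.1). It ran from -5.55 with a pseudocount of 1 to -2.12 with a pseudocount of 64, since Sparcl1 in MSC lies near the lowest value of the table.

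Periostin, encoded by Postn, is a matricellular protein of periosteum, valves and activated fibroblasts. Postn read 2429, 1049 and 923 in MSC and 1922, 995 and 785 in JG. Sample 1 was the highest in each group and the groups overlapped throughout. The difference of -0.21 ± 0.50 was not called (adjusted p = 0.808), and its sign turned without MSC sample 1 (0.22) or JG sample 3 (0.056). Postn was not called with any alternative (adjusted p from 0.402 to 0.961).

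Fibronectin, encoded by Fn1, was bright in both groups. Its brightest probe set read 6525, 5670 and 6763 in MSC and 3891, 631 and 1088 in JG. All MSC samples were above all JG samples, but the JG samples spanned 6.17-fold, and the difference of -2.17 ± 0.64 was not called (adjusted p = 0.071). It was called without JG sample 1 (-2.90, adjusted p = 0.00304), with the mean of both Fn1 probe sets (-2.90, adjusted p = 0.00826), with dim genes left out (0.0443 and 0.0428), with a trended and robust prior (0.0356) and with array weights (0.00353). The second Fn1 probe set read 792, 127 and 256 in MSC and 1.48, 3.77 and 31.8 in JG. The groups did not overlap, and the difference of -3.63 ± 0.71 was called over all probe sets (adjusted p = 0.0244). JG sample 1 was the highest JG sample in the brighter probe set and the lowest in the dimmer. The dimmer probe set's call was lost under 5 alternatives, with adjusted p up to 0.0925.

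Over all 16 probe sets, 6 were called, against 12.9% of all probe sets. Of these, 5 were higher in MSC, against 7.47% of all, and 1 in JG, against 5.4%. The 5 were 2 of Thbs1 and 1 each of Tnc, Thbs2 and Fn1. The groups did not overlap for 10 of the 16, against 36.9% of all probe sets. Sparc, Thbs2 and Tnc each held a dim probe set that was not called. In all 5 genes with more than 1 probe set, every probe set had a negative difference.

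**Figure D2:**
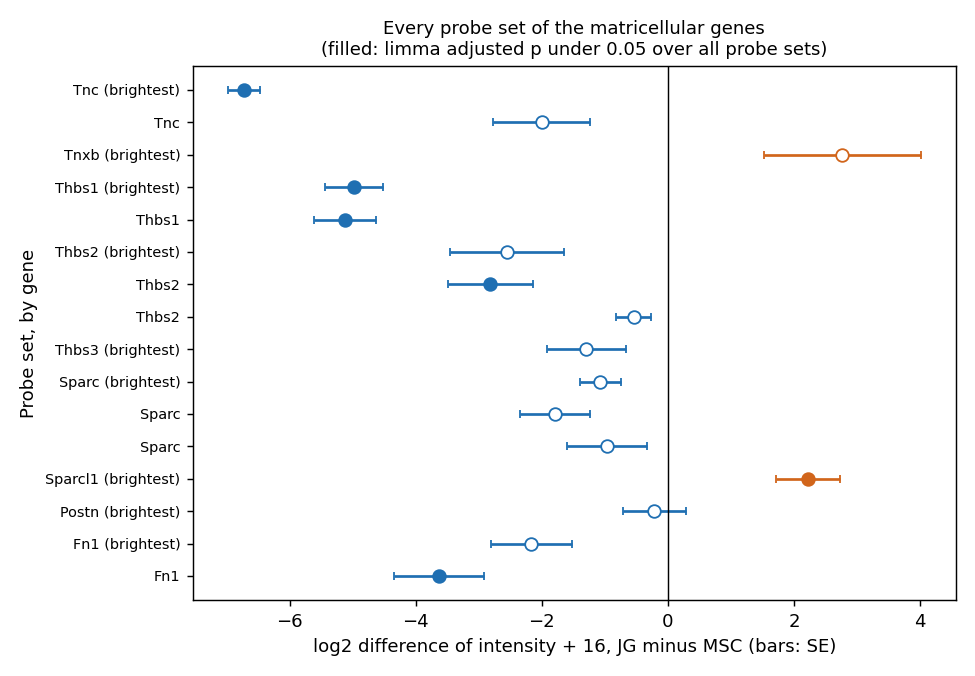
JG less MSC difference in log2(intensity + 16) for each of the 16 probe sets, grouped by gene, with bars for the SE; filled points have a limma adjusted p under 0.05 over all probe sets. The 6 filled points are from Tnc, Thbs1, Thbs2, Fn1 and Sparcl1, and only Sparcl1 and Tnxb lie to the right of 0.

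The log2 SD was larger among JG than among MSC samples for 6 of the 9 genes and smaller for 3 (Postn, Thbs1 and Tnc). JG sample 1 was the highest JG sample for 7 of the 9 genes (Fn1, Postn, Sparc, Sparcl1, Thbs2, Thbs3 and Tnxb), whereas it was highest for 36.9% of all genes. The exceptions were Tnc, whose JG values are too near the floor to be ordered, and Thbs1, in whose second probe set JG sample 1 was the highest. JG sample 1 lay above the JG mean by 2.58 for Tnxb, 1.64 for Thbs2, 1.47 for Fn1, 1.39 for Thbs3 and 1.18 for Sparcl1 on the log2 scale, and was at -0.17 for Tnc. The median SD of the 9 genes was 1.02 among JG samples and 0.33 among MSC samples, against 0.54 and 0.26 for all genes. A skew to sample 1 was not limited to JG: MSC sample 1 was the highest MSC sample for 5 of the 9 genes, against 26.5% of all genes.

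**Figure D3:**
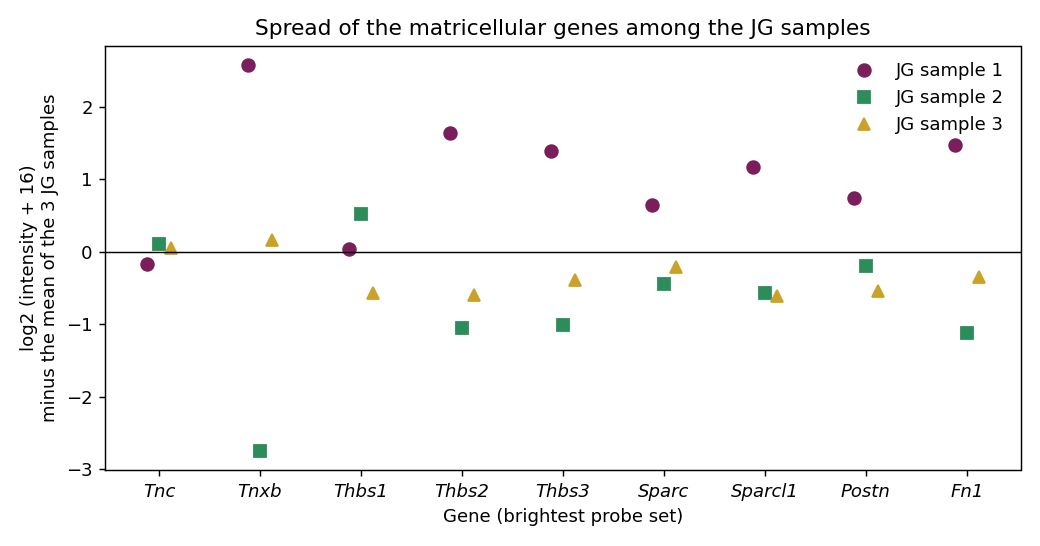
Value of each JG sample, as log2(intensity + 16), minus the mean of the 3 JG samples, for the brightest probe set of each gene. JG sample 1 (circles) is the highest for 7 of 9 genes, from 0.65 above the mean for Sparc to 2.58 for Tnxb, and lies at 0.05 for Thbs1 and -0.17 for Tnc.

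Of 10 adventitial fibroblast markers, 9 were highest in JG sample 1 among the JG samples, and the exception, Clec3b, was lowest there. The summed intensity of the 10, carried mostly by the brightest genes, was 33669 in JG sample 1, 12967 in sample 2 and 18857 in sample 3, and 13935 to 16288 in MSC. Of the 10, 4 were higher in JG (Dpt, Pi16, Clec3b and Mfap5), and the lowest value of any of them in JG was 32.8, for Pdgfra. Pdgfra, a receptor gene of fibroblasts singled out after its values were seen, read 1464, 32.8 and 398 in JG samples 1 to 3. That is the order in which Tnxb stood, at 831, 5.14 and 144. Col1a1 and Col3a1, the brightest of the list in JG, were 7448, 4630 and 4729, and 7011, 2026 and 3782. JG sample 1 was also the highest of the JG samples for 5 of 6 distal tubule and collecting duct markers. It was highest for 4 of 6 thick ascending limb, 4 of 10 proximal tubule, 3 of 10 endothelial and 3 of 10 macrophage markers. For renin cell markers the count was 3 of 6, for MSC surface markers 4 of 7 and for smooth muscle and pericyte markers 3 of 8. The distal list summed to 12893, 4619 and 8958 in JG samples 1 to 3. Its genes Calb1 and Slc12a3, picked after their values were seen, stood in the order of Tnxb. The share of all genes in that order was not computed. The parts of fibroblasts and of tubule cells in the values of the members were not tested.

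Relatives, receptors and binding partners of these proteins were read next from 7 lists of 56 genes, all measured. The lists were chosen with earlier results of these data known and include Cd44, the MSC sort antigen gene. Their shares beside those of all genes are therefore a description and not a test. Of the 56, 15 were higher in MSC and 5 in JG, or 26.8% and 8.93%, against 7.63% and 7.7% of all genes. The median difference was -0.21, against 0.07 for all genes. These 15 became 6 to 8 on leaving out an MSC sample or JG sample 3, and the 5 became 2 or 3. Ccn4, Ccn5, Itgb8, Sdc1, Cd44, Cd36, Fbln2 and Tgfb3 stayed called under every alternative.

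**Figure D4:**
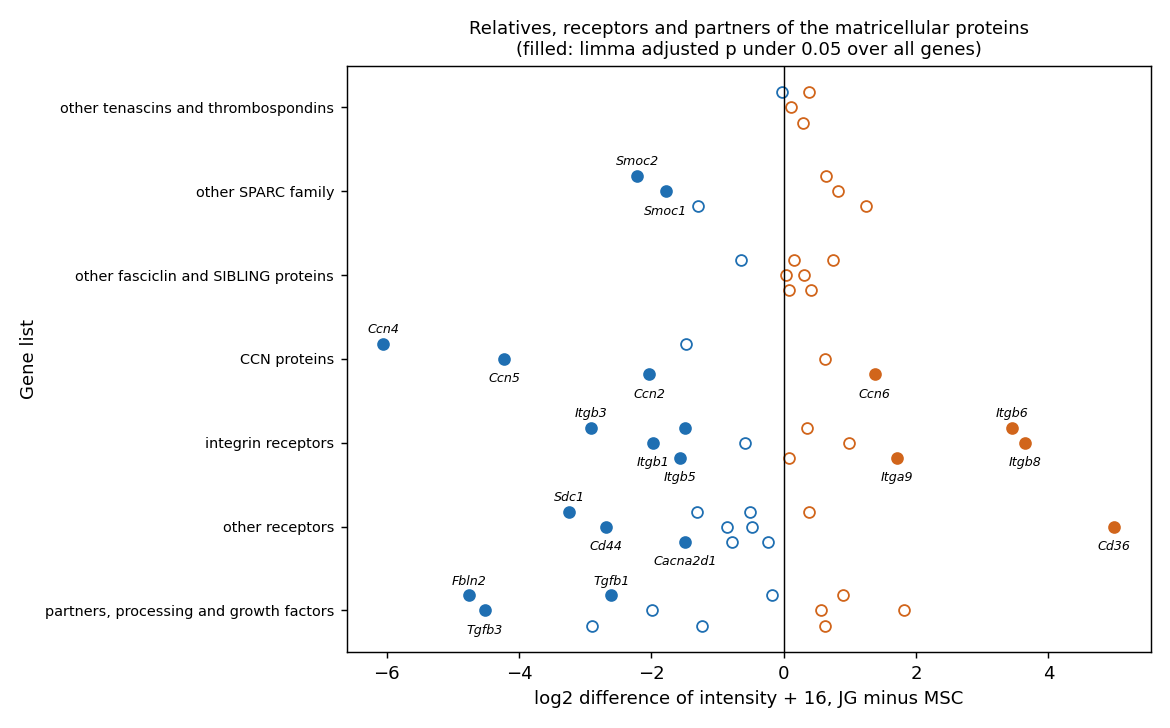
JG less MSC difference in log2(intensity + 16) for 56 genes in 7 lists, 1 point per gene, with vertical offsets only for legibility; filled points have a limma adjusted p under 0.05 over all genes, and blue and orange mark negative and positive differences. CCN proteins and receptors hold the points farthest from 0, from Ccn4 at -6.05 to Cd36 at 4.99.

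Of the closest relatives, few were called. None of the 4 other tenascins and thrombospondins (Tnr, Tnn, Thbs4 and Comp) was called by limma, with 0 at an unadjusted p under 0.05 as well, and their summed intensity stayed between 21.8 and 56.2 on all arrays. None of 7 fasciclin and SIBLING proteins, the families of periostin and osteopontin, was called by limma, and 1 had an unadjusted p under 0.05. The calcium-binding Smoc2 (-2.22 ± 0.50, adjusted p = 0.0328) and Smoc1 (-1.78 ± 0.33, adjusted p = 0.0174) were higher in MSC, of 6 other members of the SPARC family. Smoc2 read 292, 298 and 796 in MSC and 128, 72.9 and 45.4 in JG, so the groups were apart. Without any 1 of the MSC samples, and with a replicate block, the calls of both were lost. That of Smoc2 was also lost without JG sample 2 or 3 and with a pseudocount of 64 (adjusted p up to 0.0892).

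The CCN proteins are matricellular too, and 3 of 6 were higher in MSC and 1 in JG, with a list median of -1.75. Ccn4, first described as a Wnt-induced gene, read 2774, 2260 and 2353 in MSC and 6.52, 19.8 and 47.9 in JG (-6.05 ± 0.40, adjusted p = 0.00032). Ccn5 read 277, 453 and 1323 in MSC and 13.0, 15.9 and 14.3 in JG (-4.23 ± 0.55, adjusted p = 0.00474). Both stood in the same pattern as Tnc, high in every MSC sample and low in every JG sample. Ccn2, the connective tissue growth factor gene, was bright in both groups, at 5159, 5407 and 4219 in MSC and 576, 1714 and 1669 in JG (-2.03 ± 0.46, adjusted p = 0.0322). Ccn6 was dim and higher in JG (1.37 ± 0.33, adjusted p = 0.0398). The calls of Ccn2 and Ccn6 were lost with a replicate block and on leaving out any MSC sample, or JG sample 3, with adjusted p up to 0.122 and 0.149. That of Ccn2 was also lost with quantile normalization, and that of Ccn6 without JG sample 2 and with a pseudocount of 64.

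Integrins are among the receptors of tenascin C, thrombospondins, periostin and fibronectin. Of 11 chains 4 were higher in MSC and 3 in JG. Itgb3, the partner of the alpha v chain in a receptor for many matrix proteins, read 884, 894 and 1269 in MSC and 373, 33.8 and 111 in JG (-2.91 ± 0.72, adjusted p = 0.0422). Itgb1 (-1.97 ± 0.40, adjusted p = 0.0221), Itgb5 (-1.57 ± 0.28, adjusted p = 0.015) were also higher in MSC, and so was the fibronectin receptor gene Itga5 (-1.49 ± 0.32, adjusted p = 0.0285), which is named after its values were seen. Itgb8, which takes part in activating transforming growth factor beta, read 39.4, 19.0 and 47.9 in MSC and 651, 453 and 772 in JG (3.65 ± 0.34, adjusted p = 0.00122). Itgb6, an epithelial chain, read 3.01, 3.20 and 2.10 in MSC and 57.6, 469 and 222 in JG (3.44 ± 0.66, adjusted p = 0.0187), and Itga9, a receptor chain for tenascin C and osteopontin, was higher in JG as well (1.72 ± 0.42, adjusted p = 0.0404). The chains that pair with alpha v thus went both ways, while the alpha v gene Itgav, singled out after its values were seen, was not called (0.07 ± 0.24, adjusted p = 0.862). The Itgb6 and Itgb8 values stood beside the tubule marker sums given above, and the part of tubule cells in them was not tested. The calls of Itgb3, Itgb1, Itgb5, Itgb6 and Itga9 were each lost without some single samples. Those of Itgb3, Itgb1, Itgb5 and Itga9 were also lost with a replicate block, and that of Itgb6 with a pseudocount of 64. The Itgb5 call was lost without probe sets of suffix s or x (adjusted p = 0.263). That of Itga9 was lost with a pseudocount of 1, with the mean of probe sets and with a trended and robust prior. Itga5 was not followed through the alternatives.

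Of 11 other receptors 3 were higher in MSC and 1 in JG. Sdc1, a heparan sulphate proteoglycan of the cell surface, read 1392, 1816 and 1760 in MSC and 235, 128 and 135 in JG (-3.24 ± 0.30, adjusted p = 0.00123). Cd44, a receptor of hyaluronan and osteopontin, was higher in MSC (-2.68 ± 0.22, adjusted p = 0.000832), but it was also the antigen of the MSC sort, so its difference is not independent of the design. Cacna2d1, a thrombospondin receptor in neurons, was higher in MSC (-1.49 ± 0.37, adjusted p = 0.0436), a call lost under 8 alternatives. Cd36, a thrombospondin 1 receptor and fatty acid transporter, read 5.59, 10.8 and 3.14 in MSC and 867, 520 and 736 in JG (4.99 ± 0.29, adjusted p = 0.000189). Thbs1 and Cd36 were therefore called in opposite directions. Cd47 (-0.24, adjusted p = 0.677), Lrp1 (-0.78, adjusted p = 0.348) and Calr (0.38, adjusted p = 0.287) of this list, named after their values were seen, were not called. The part of tubule cells in the Cd36 value was not tested.

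Of 11 binding partners, processing enzymes and growth factors 3 were called, each higher in MSC, and 0 had a called JG excess, where limma gave an unadjusted p under 0.05 for 1 with a positive difference. Fbln2, a fibulin that binds fibronectin, read 2406, 1667 and 2145 in MSC and 150, 38.3 and 33.4 in JG (-4.76 ± 0.50, adjusted p = 0.00203). Tgfb3 read 1061, 1179 and 1017 in MSC and 105, 11.6 and 16.9 in JG (-4.52 ± 0.57, adjusted p = 0.00418). JG sample 1 was the highest of the JG samples for both. It was also highest for 8 of the 11 genes of this list and 8 of 11 other receptors. Among CCN proteins it was highest for 0 of 6, among other tenascins and thrombospondins for 0 of 4 and among integrin chains for 2 of 11. The count was 2 of 6 for other SPARC family genes and 2 of 7 for fasciclin and SIBLING genes. Tgfb1 read 56.8, 336 and 182 in MSC and 24.98, 10.3 and 4.88 in JG (-2.61 ± 0.61, adjusted p = 0.0356). This call was lost with a pseudocount of 64, with a replicate block and without MSC sample 2 or 3 or JG sample 2 or 3 (adjusted p up to 0.133).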

How the data were processed

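RNA of 3 MSC and 3 JG samples was read on 1 Affymetrix mouse array each. The intensities are those of the table the authors deposited, on a linear scale with a floor of 1, and their scaling and summarisation are not given in the sources used here. Probe sets were named through the platform annotation: 34945 had 1 gene symbol, 932 had several and 9160 had none, and only the first were used. Intensities were taken as log2 after adding 16, and each gene was represented by its probe set with the highest mean. limma 3.58.1 in R 4.3.3 (lmFit and eBayes) compared JG with MSC over 18193 genes and, separately, all 34945 probe sets, with Benjamini-Hochberg adjustment and a threshold of 0.05. Ratios of 4 gene pairs were compared by an exact two-sided permutation test. The fit was tested on simulated data in which each gene had the same spread in both groups. The JG samples here spread more than the MSC samples, so that test does not cover the unequal spread. Members and lists were chosen with earlier results of these data known. Named were all members and up to 3 called genes in each direction of each pathway list. Of each cell type list, the 2 markers with the highest JG mean were picked, and those bearing on the members are given. All called markers of the renin cell, MSC surface and adventitial fibroblast lists are named as well, outside this rule. Alternatives covered scaling, the pseudocount, dim probe sets, the choice of probe set, the variance prior, array weights, a replicate block and each sample left out. The arrays' number limits the precision. Upstream sequences were from RefSeq.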

Additional observations from a re-analysis of the deposited data

How the results depend on the processing

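Tnc and Thbs1 were called under every alternative run, and no called member changed sign. The difference of Postn, which was not called, ran from -0.58 without JG sample 1 to 0.22 without MSC sample 1, and was 0.056 without JG sample 3. Members higher in JG numbered 0 with a pseudocount of 64, 0 without genes under the median, 2 under array weights and 0 to 2 with 1 sample left out. Members higher in MSC numbered 4 with a trended and robust prior, 6 under array weights and 2 to 6 with 1 sample left out. Of the members' probe sets, 3 were called with a pseudocount of 64, 12 under array weights and 3 to 11 with 1 sample left out. In the pathway lists, the count higher in JG was 3 with a pseudocount of 64, 3 without genes under the median, 10 under array weights, 3 with the replicate block and 2 to 7 with 1 sample left out. The count higher in MSC was 7 with the replicate block and 6 to 20 with 1 sample left out. Over all genes, 6177 were called in either direction under array weights, 1613 with the replicate block and 1139 to 5194 with 1 sample left out. Shares of all genes or probe sets in each direction were not computed for the alternatives, so the member counts cannot be set against them. The cause of these changes was not tested. Deviations of same-numbered samples correlated at -0.197, -0.0093 and -0.0075. They are taken within groups of only 3 samples, so they cannot decide whether the numbers pair the samples. The replicate block changed no member's call over genes. The alternatives for the pathway lists and for single probe sets were added after seeing the data. Values near the floor of 1 have no order, which limits Tnc in JG and Sparcl1 and Tnxb in MSC.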
